A study of Mus musculus with 6 samples.

Results

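Prnp, Prnd, Sprn and Mapt were followed as 4 named genes of the 53640 gene symbols shared by the deposited tables: the 3 genes of the mouse prion protein family, and the mouse tau gene. The rule names them by symbol and sets no cutoff on their measured values, but it was chosen with earlier results of these data known. Of the 4, 3 passed the filter on low counts, among 20694 genes in all, and Prnd did not. RNA was measured in tissue labelled PFC (bulk lysate) from mice aged 6 months, in 6 libraries that the labels describe as biological duplicates of 3 groups. The control group was of the C57BL/6 x C3H genotype given vehicle. The tau group was PS19(P301S) given vehicle, and the treated tau group was PS19(P301S) given WDR5-0103, a compound aimed at WDR5, which is a common subunit of the histone H3K4 methyltransferase complexes. PS19 mice carry a human tau complementary DNA with the P301S change in a cassette driven by the mouse Prnp promoter, and keep their own Prnp and Mapt genes. The sources used here give no dose, route or duration of treatment.

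Prnp encodes the cellular prion protein, a glycoprotein held on the outer cell membrane by a glycosylphosphatidylinositol (GPI) anchor and abundant in neurons. It is the protein that misfolds in prion disease. Prnd encodes doppel, a related protein best known from testis, and Sprn encodes shadoo, another GPI-anchored family member of the brain. Mapt encodes tau, an axonal protein that binds microtubules and forms the tangles of tauopathies. The Prnp expression cassette used for many mouse models includes 5' flanking sequence and untranslated exon sequence of Prnp around the inserted coding sequence. A count per gene cannot separate RNA of the cassette from RNA of the resident gene where they share bases, and in bulk tissue fewer cells of a type and less RNA per cell cannot be told apart.

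In the GENCODE M21 annotation of mm10, Prnp lies on chromosome 2 from 131909928 to 131938429 on the plus strand. Its 762 coding bases all lie in its last exon of 2010 bases, and 333 exonic bases lie before that exon. Prnd follows on the same strand from 131950861 to 131956130. Across both the annotation places Prn, a readthrough gene that runs from 131909957 to 131956130, begins with exon sequence of Prnp and ends with the coding exon of Prnd. Sprn is on chromosome 7 from 140150628 to 140154877 on the minus strand, and Mapt on chromosome 11 from 104231390 to 104332090 on the plus strand.

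**Figure D1:**
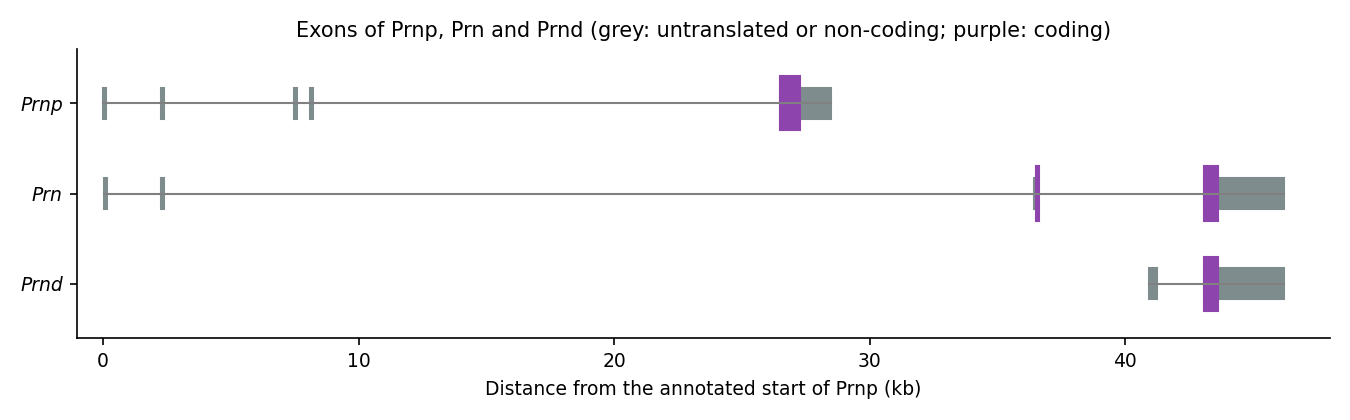
Exons of Prnp, Prn and Prnd by distance in kb from the annotated start of Prnp, with coding parts in purple and other exonic parts in grey (the shortest exons are drawn slightly wider than scale to be visible). Prn shares its first exons with Prnp and its last exon with Prnd, while the coding exon of Prnp overlaps neither.

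The promoters of the neighbouring Prnp and Prnd genes are shown because the first is the sequence that names the PS19 cassette and the second belongs to the neighbour that was almost without counts. Each is the run of 250 bases before the RefSeq start of the gene (GRCm38.p6, plus strand, chr2:131909678-131909927 for Prnp and chr2:131950611-131950860 for Prnd), 5′ to 3′. Capitals mark matches on either strand to GGGCGG, the core of an Sp1 box, to CCAAT and to TATATA.
Prnp: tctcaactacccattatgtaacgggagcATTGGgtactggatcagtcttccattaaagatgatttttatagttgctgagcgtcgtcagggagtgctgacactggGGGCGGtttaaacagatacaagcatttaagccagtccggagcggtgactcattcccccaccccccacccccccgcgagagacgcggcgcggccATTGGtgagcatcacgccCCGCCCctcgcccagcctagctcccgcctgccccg
Prnd: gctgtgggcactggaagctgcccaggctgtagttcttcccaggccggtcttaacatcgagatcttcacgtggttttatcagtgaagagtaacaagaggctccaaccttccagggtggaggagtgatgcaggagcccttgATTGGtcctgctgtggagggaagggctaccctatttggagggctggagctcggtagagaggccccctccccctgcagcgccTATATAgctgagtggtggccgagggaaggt

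The Prnp run held 2 matches to GGGCGG and 2 to CCAAT, and the Prnd run 0 and 1. The share of 27025 RefSeq promoters of this length with a match was 32.9% for GGGCGG and 34.5% for CCAAT. The Prnd run held TATATA beginning 30 bases before the start, a word found in 5.56% of promoters and not in the Prnp run. The other TATA word searched, TATAAA, is in 13.0% of promoters and was found once, on the reverse strand 186 bases before the Prnp start (not capitalised). The Prnp run had 17 CpG dinucleotides, more than 76.4% of promoters, and the Prnd run 6, which is the median of all. GC content was close, at 58.8% and 58.0%. The Sprn run had 10 CpG, 1 match to GGGCGG and 1 to CCAAT. These matches are words in a window and were not tested as binding sites.

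Some facts of the libraries bear on every value below. Library totals lay between 17690811 counts (tau 2) and 34774643 counts (treated tau 1). Xist, the RNA of the inactive X chromosome, was at 186 CPM or more in control 2 and both tau libraries and at 2.43 CPM or less in the others, while Y-linked Ddx3y was at 91.2 CPM or more in control 1 and both treated tau libraries and at 0.391 CPM or less in the others. CPM here is the count scaled to the TMM-adjusted library size, in all values that follow. All 10 markers of excitatory cortical neurons were detected in every library (summed level 2379 and 2834 CPM in control, 2472 to 2613 in tau and 2740 to 2824 in treated tau). Control 1 held 122 CPM summed over 6 olfactory bulb markers against at most 7.59 CPM in any other library. Tau 2 held 400.5 CPM summed over 10 striatal markers against at most 239 CPM elsewhere, and its 11 oligodendrocyte markers summed to 5922 CPM. The tables hold no separate symbol for the human tau of the cassette, so the transgene itself could not be used to check the labels. As given next, Prnp and a transcript beside it set the 2 control libraries apart, with the library labelled control 1 at the level of the PS19 libraries. These values do not say whether either control library departs from its label or its group, and why the 2 differ was not tested. Every direction against control includes both unless 1 is named as left out.

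Prnp was among the most abundant transcripts of the tissue. Per kilobase of exon its mean level over the 6 libraries was 651 CPM per kb, rank 12 of the 20557 tested genes with an annotated length. That mean pools 706 and 374 CPM per kb in control 1 and control 2 with 628 to 801 CPM per kb in the libraries labelled PS19. Sprn followed at 77.1 CPM per kb (rank 470) and Mapt at 69.6 CPM per kb (rank 534), so that per length the prion protein gene stood far above both the other prion family gene and the tau gene.

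Prnp had 41900 counts in control 1 and 22349 in control 2. It had 43072 counts in tau 1, 25680 in tau 2, 64201 in treated tau 1 and 42762 in treated tau 2. Scaled to library size these were 1654 and 876 CPM in control, 1684 and 1472 CPM in tau, and 1876 and 1594 CPM in treated tau. Control 2 alone was low, and the library labelled control 1, which should be free of the cassette, lay inside the range of the 4 libraries labelled PS19. The groups therefore overlapped in every comparison.

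**Figure D2:**
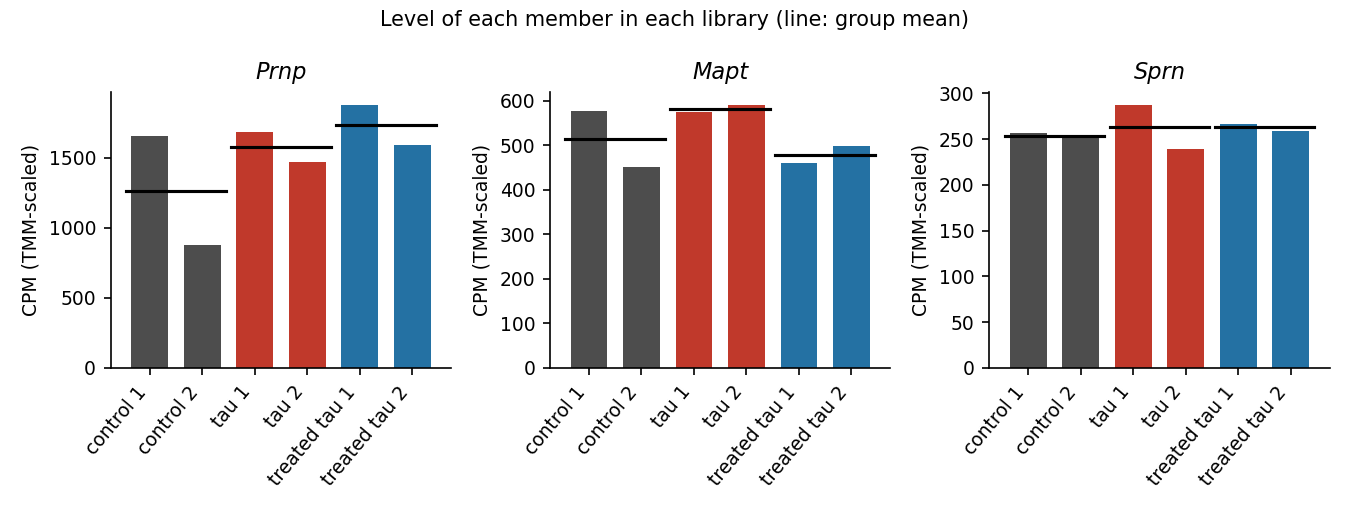
CPM of Prnp, Mapt and Sprn in each of the 6 libraries (bars, from 0) with the mean of each group of 2 as a line. Prnp is lowest in control 2 at 876 CPM, Mapt is lower in both treated tau libraries than in both tau libraries, and Sprn stays between 239 and 287 CPM.

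The Prnp gap between the 2 control libraries was wide beside that of most genes compared, a set not matched to its abundance. On the log2 CPM scale control 1 exceeded control 2 by 0.92 for Prnp, against a median absolute difference of 0.12 over the 8688 tested genes whose average log2 CPM was 4 or more. A difference as large was seen in 50 of these genes (0.576%). Within tau the Prnp difference was 0.19 and within treated tau 0.24, and 22.6% and 12.1% of the same genes differed as much. For Mapt the control libraries differed by 0.36 (6.62% of genes as large), the tau libraries by 0.039 and the treated tau libraries by 0.11. For Sprn the differences were 0.031 in control, 0.26 in tau (13.1% of genes as large) and 0.042 in treated tau. Within tau, Sprn thus differed more than Prnp.

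**Figure D3:**
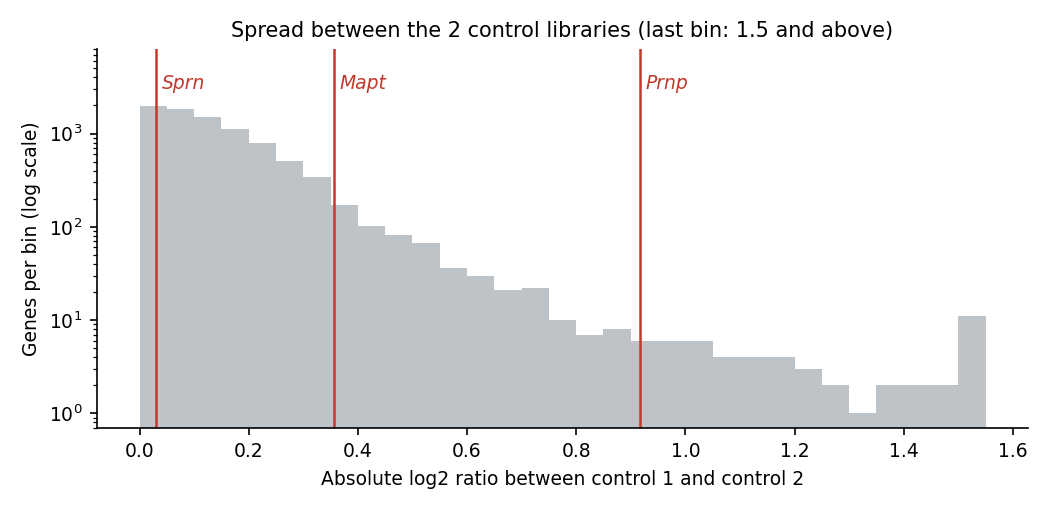
Number of genes (log scale) by the absolute log2 ratio between control 1 and control 2, over 8688 tested genes whose average log2 CPM was 4 or more, with the 3 tested members marked. Prnp lies at 0.92 in the thin tail, Mapt at 0.36 and Sprn at 0.031.

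Transcripts beside Prnp were read next, since the cassette carries flanking sequence of the gene. The annotation has 10 other genes within 250 kb of Prnp, of which 4 were tested, and none was called in any comparison. The nearest before Prnp is Lamr1-ps1, a processed pseudogene of the laminin receptor gene Rpsa, on chromosome 2 from 131904086 to 131904959, which ends 4969 bases before the Prnp start. Lamr1-ps1 had 86 counts in control 1 and 0 in control 2, 71 and 50 in tau 1 and tau 2, and 119 and 50 in treated tau 1 and treated tau 2. Control 2 was thus the single library without a read, and the library labelled control 1 again lay with the PS19 libraries.

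Lamr1-ps1 stood at 3.39 CPM in control 1, 2.78 and 2.87 CPM in tau and 3.48 and 1.86 CPM in treated tau. Against a floor of 3 counts in control 2, the other libraries were at least 15.9-fold higher (treated tau 2) to at least 29.6-fold higher (treated tau 1). These floors cover counting error only. Of all 20694 genes tested, Lamr1-ps1 was the only gene with 0 counts in control 2 and at least 50 in each of the other 5 libraries. That minimum equals its own lowest count and was set with its counts known, so the statement describes the gene and is no test. The same count was 1 gene for tau 1 (2610507I01Rik, named after its values were seen) and 0 genes for control 1, tau 2 and both treated tau libraries. None of the 825 runs of 50 bases in Lamr1-ps1 occurred in a transcript of another gene, although copies that differ at scattered bases are not caught by exact matches. Rpsa itself had 73.8 and 74.8 CPM in the control libraries.

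In the edgeR quasi-likelihood test Lamr1-ps1 was not called over the 6 libraries (adjusted p = 0.666 for tau and treated tau together against control). Without control 1 it was called in that comparison (adjusted p = 0.0415) and in treated tau against control (adjusted p = 0.0118), but not in tau against control (adjusted p = 0.194). With a sex term, which rests on the same 2 control libraries, it was called lower in treated tau than in tau (adjusted p = 0.0496) and not in PS19 against control (adjusted p = 0.062). Its fitted fold changes against a lone library at 0 depend on the prior count and are not given as sizes. Rassf2, a tumour suppressor gene that is the nearest tested gene after Prnp, had 61.0 and 51.1 CPM in control, 61.6 and 79.1 CPM in tau and 65.9 and 57.9 CPM in treated tau. Its control libraries differed far less than those of Prnp. What sets control 2 apart at Prnp and Lamr1-ps1 was not tested.

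Prnd had 0 counts in 5 libraries and 2 counts in treated tau 2. A count of 0 allows up to 3 counts, which is between 0.0877 and 0.172 CPM over the 6 libraries, and no test was made. The annotation limits what this 0 can say. Of 3211 exonic bases of Prnd, 3122 (97.2%), with all 537 coding bases, are also exonic bases of Prn on the same strand. Prn had 0 counts in all 6 libraries, although 145 of its bases are exonic bases of the highly counted Prnp. No read on those 145 bases was counted for Prn, and if reads on bases shared by several genes went to none, only 89 bases of Prnd could be counted. The sources used here do not say how the authors' counting treated such reads. For Prnp the same sharing concerns 145 of 2343 exonic bases (6.19%), all before its last exon. Adding Prnd and Prn to Prnp left its level in each library as it was within 2 counts.

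Sprn, the shadoo gene, was the steadiest of the tested members. It had 257 and 251 CPM in control, 287 and 239 CPM in tau, and 267 and 259 CPM in treated tau. The tau libraries held both the highest and the lowest value. Treated tau lay just above control without overlap, and 46.3% of all tested genes did not overlap in that comparison. In the edgeR quasi-likelihood test tau exceeded control by a log2 fold change of 0.05 ± 0.09 (SE), with a 95% interval from -0.15 to 0.26 (adjusted p = 0.859). For treated tau against tau it was -0.00 ± 0.09, with an interval from -0.21 to 0.20 (adjusted p = 0.997). Neither interval reaches a change larger than 0.26 in size. The sign of the second turned under 5 of 14 alternatives, all within -0.12 to 0.13. The last exon of Sprn shares 159 bases with Mtg1, a mitochondrial GTPase gene on the other strand at 13.9 to 17.1 CPM, and since the strand setting of the counting is not given, reads there cannot be assigned with certainty.

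Tau was compared with control to ask whether the cassette is seen in the promoter gene and whether Mapt counts differ beside human tau. Whether reads of the human tau RNA were counted for Mapt was not tested, here or in the comparisons below. Prnp went from 1265 ± 549.8 CPM in control to 1578 ± 150.4 CPM in tau (SD, n = 2 libraries each). Its log2 fold change was 0.32 ± 0.23 (SE), with a 95% interval from -0.19 to 0.83 and an adjusted p of 0.638 in edgeR's quasi-likelihood test. Mapt had 576 and 450.4 CPM in control and 574 and 589.7 CPM in tau. The tau libraries were alike and control 1 lay with them, while control 2 was lower. The log2 fold change of Mapt was 0.18 ± 0.11, with an interval from -0.06 to 0.42 (edgeR adjusted p = 0.577). No member was separated between these groups, where 41.6% of genes did not overlap. No member was called, and edgeR called 0 of 20694 genes (0%) in this comparison. At an unadjusted p under 0.05 there were 2059 genes, and DESeq2 called 43.

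These differences turned on which control library was used. Without the library labelled control 1 Prnp was higher in tau by 0.85 (edgeR adjusted p = 0.119), and without control 2 it was -0.07 (adjusted p = 0.879). For Mapt it was 0.37 without control 1 (adjusted p = 0.336) and 0.01 without control 2 (adjusted p = 0.973). The adjusted p of Prnp ran from 0.119 to 0.917 over 14 alternatives and that of Mapt from 0.333 to 0.973. In each fit without a control library the lone control library is assumed to vary as the other groups do.

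The 4 libraries labelled PS19 were then set together against control, since all of them should carry the Prnp cassette. Prnp had 1657 ± 170.4 CPM in these 4 libraries and 1265 ± 549.8 CPM in the 2 control libraries (SD), a log2 fold change of 0.39 ± 0.20 with an interval from -0.06 to 0.84 (edgeR adjusted p = 0.396), where 170 genes (0.821%) were called and 22% of genes, but no member, did not overlap. Without control 1 the log2 fold change was 0.92 and passed the threshold (adjusted p = 0.00813). Without control 2 it was 0.00, and with a term for sex it was 0.46 and passed (edgeR adjusted p = 0.0275). Within a group only the 2 control libraries differ in sex. The sex term therefore takes up their difference by construction, and this pass cannot be read apart from it. For treated tau against control the Prnp log2 fold change was 0.46 ± 0.23 (edgeR adjusted p = 0.368; 4.22% of genes called), 0.99 without control 1 (adjusted p = 0.00095) and 0.07 without control 2 (adjusted p = 0.817). The comparisons against control share the same 2 control libraries and are not independent of each other.

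**Figure D4:**
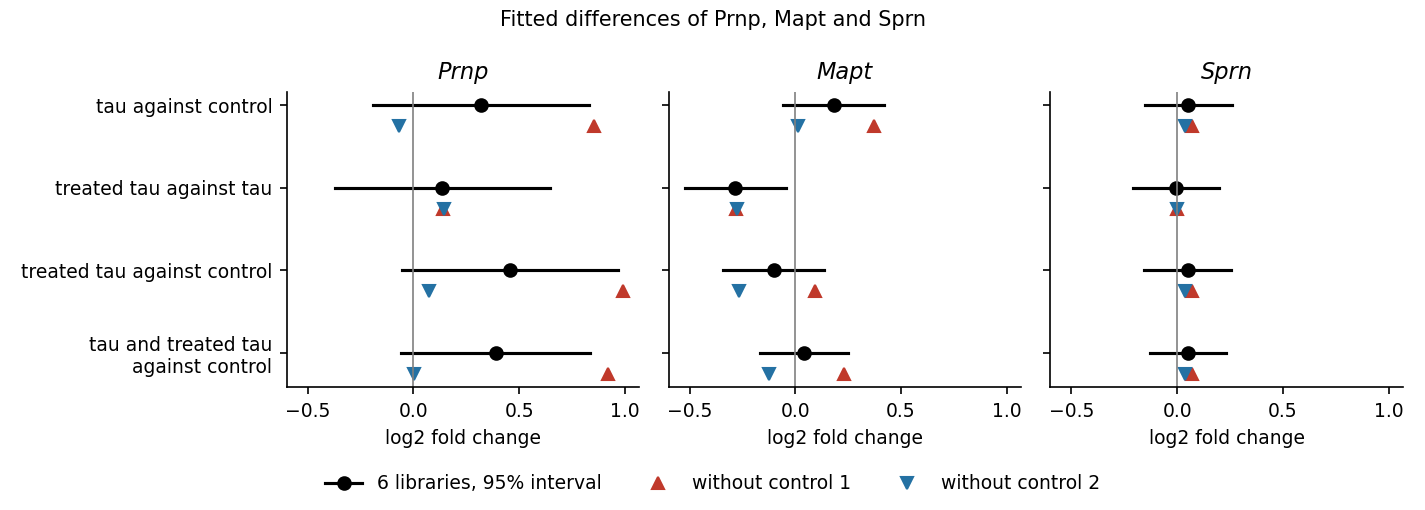
Fitted log2 fold changes of Prnp, Mapt and Sprn in 4 comparisons, over 6 libraries (black points, lines for the 95% interval) and without control 1 or control 2 (triangles). For Prnp against control the 2 triangles lie far apart, from -0.07 to 0.85 for tau against control, while those of Sprn nearly coincide.

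The question of the next comparison, treated tau against tau, was what differs with WDR5-0103 in tau transgenic tissue. Mapt had 459 and 497 CPM in treated tau against 574 and 589.7 CPM in tau, so both treated libraries lay below both tau libraries. In this comparison 41.3% of all tested genes did not overlap. The log2 fold change of Mapt was -0.28 ± 0.11 (SE), with a 95% interval from -0.52 to -0.04 and an unadjusted p of 0.0256. It did not pass over all genes (edgeR adjusted p = 0.296; 3.76% of genes called). Over 14 alternatives its adjusted p ran from 0.0455 to 0.688. It passed by a narrow margin without control 1 (adjusted p = 0.0455), without control 2 (0.0486), with only the 4 libraries compared in the fit (0.046) and with a term for sex (log2 fold change -0.64, adjusted p = 0.0462). Both tau libraries had the Xist level of females and both treated tau libraries the Ddx3y level of males, so treatment and sex cannot be told apart here. The sex term itself rests on the difference between the 2 control libraries.

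Against control, Mapt in treated tau had a log2 fold change of -0.10 ± 0.11 (edgeR adjusted p = 0.7), 0.09 without control 1 and -0.26 without control 2. Control 2, at 450.4 CPM, lay below both treated libraries, so the order of the group means (treated tau 478 ± 26.7, control 513 ± 89.0 and tau 582 ± 11.01 CPM) was not separated by the spread within control. For Prnp the treated and untreated tau libraries overlapped. Its log2 fold change for treated tau against tau was 0.14 ± 0.23, with an interval from -0.37 to 0.65 (edgeR adjusted p = 0.91), and with a sex term it turned to -0.78 (adjusted p = 0.0589). Without treated tau 1 it was 0.02, without tau 2 0.05, without tau 1 0.24 and without treated tau 2 0.25.

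Within a library the ratio of member counts does not depend on depth. There were 2.87 Prnp counts per Mapt count in control 1 and 1.95 in control 2. The tau libraries had 2.93 and 2.5, and the treated tau libraries 4.08 and 3.21. Control 2 had the lowest and the treated libraries the highest ratios. Prnp counts per Sprn count were 6.44 and 3.49 in control and between 5.87 and 7.04 in the other 4 libraries, so against its own family member Prnp stood low in control 2 alone.

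Cell type markers moved with the libraries as well. Oligodendrocytes make Prnp RNA as neurons do, and the 11 oligodendrocyte markers, none at 0, summed to 3158 and 1573 CPM in control, 2625 and 5922 CPM in tau and 2763 and 3076 CPM in treated tau. Control 2 was thus lowest both in these markers and in Prnp. Tau 2, with the highest oligodendrocyte sum, had the second lowest Prnp level. The excitatory neuron markers of control 2 (2834 CPM) were the highest of the 6 libraries, and its astrocyte markers (4678 CPM) lay between those of the others. The part of these cell types in the Prnp difference was not tested.

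**Figure D5:**
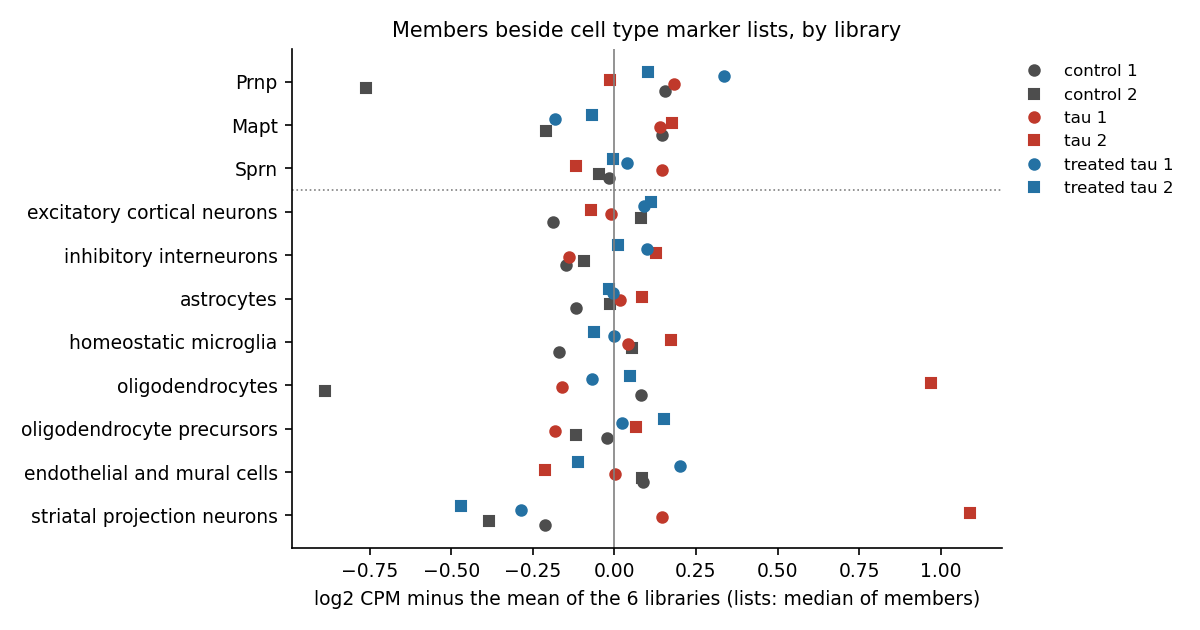
Deviation of log2 CPM from the mean of the 6 libraries for Prnp, Mapt and Sprn, and the median deviation of 8 marker lists, by library. The olfactory bulb, choroid plexus and blood lists are not drawn. Control 1 had a median deviation of 3.48 over the 3 tested olfactory bulb markers. Control 2 is low in Prnp and in oligodendrocyte markers, while tau 2 is high in oligodendrocyte and striatal markers and not in Prnp.

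Among abundant genes few stood lowest in control 2 by as wide a gap as Prnp did. Its gap to the next library was 0.75 on the log2 CPM scale. Of the 8688 genes compared, 7 were lowest in control 2 by a gap at least that wide, Prnp included. That width was set by Prnp itself, so the count describes the gene and is no test. The same count was 2 genes for control 1, 2 for tau 1, 2 for tau 2, 5 for treated tau 1 and 3 for treated tau 2. Beside Prnp, those of control 2 were Kdm5d, a Y-linked demethylase gene, and Mal, Anln, Mobp, Mag and Mbp. These 6 were named after their values were seen. Mal, Mobp, Mag and Mbp are among the oligodendrocyte markers used above. Anln had 29.9 and 14.9 CPM in control, 28.7 and 74.6 CPM in tau and 30.9 and 31.8 CPM in treated tau. Kdm5d had 0 CPM in control 2, 0.156 CPM in tau 1 and 0.115 CPM in tau 2, so its gap lay near the floor. In control 1 and both treated tau libraries Kdm5d had 35.2 to 46.3 CPM. Mbp had 1066 and 537 CPM in control, 903 and 2003 CPM in tau and 975 and 1042 CPM in treated tau. Its level in tau 2 was the highest of all, where Prnp was below its level in tau 1.

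The genes whose pattern was nearest to a member were sought over the 6 libraries, by the root mean square difference of log2 CPM deviations, among 8687 other genes. None followed Prnp closely: the nearest were the pseudogene Pcna-ps2 (0.18), the predicted genes Gm2423 (0.19) and Gm14253 (0.19), the pseudogene Mpc1-ps (0.19) and C1qc, a complement subunit of microglia (0.20). Pcna-ps2 had 18.8 and 13.2 CPM in control, a smaller gap than that of Prnp. Nearest to Mapt were Vdac2, a channel of the outer mitochondrial membrane (0.027), and Eci2, an enzyme of fatty acid oxidation (0.039). Next were Arhgap12 (0.042), Rhobtb3 (0.044) and Mvk, mevalonate kinase (0.047). Vdac2 had 171 and 135 CPM in control, 180 and 178 CPM in tau and 141 to 150.04 CPM in treated tau, the order of the Mapt groups. The values within a column share 1 library and its depth, so nearness is a description only. The measure is not scaled to a gene's own spread, so distances of different members are not compared.

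The neighbours of Mapt gave no call. Of the 15 annotated genes within 250 kb of Mapt, 6 were tested and 0 called in any of the 4 comparisons. Kansl1, a subunit of a histone acetyltransferase complex 1139 bases beyond Mapt, had a log2 fold change of 0.05 ± 0.09 for treated tau against tau, and Crhr1, the receptor of corticotropin-releasing hormone on the other side, 0.12 ± 0.13. Around Sprn 11 of 32 genes were tested. The processed pseudogenes Gm45456 and Gm6376 were called higher in treated tau than in tau (edgeR adjusted p = 0.00296 and 0.00941) and than in control (0.0159 and 0.00669), 2 of 11 genes in each comparison where 3.76% and 4.22% of all genes were called. Both were at 2.24 CPM or less in every library. Gm45456 is the nearest tested gene on one side of Sprn, and Gm6376 was named after its values were seen. Paox, a polyamine oxidase gene on the other side, was at 5.05 to 8.21 CPM and was not called.

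Partners of the prion protein were described from a list of 15 genes, all tested. None was called in any comparison, and 7 had positive log2 fold changes for tau against control (list median -0.01, all genes -0.00) and 12 for treated tau against tau (0.08, all genes -0.01). Lrp1, an endocytic receptor that binds prion protein and takes up tau, had 544 and 670.3 CPM in control, 457 and 496 CPM in tau and 607 and 615 CPM in treated tau. Its tau libraries were the lowest. Of all tested genes 41.6% did not overlap between tau and control, and 41.3% between treated tau and tau. The log2 fold change of Lrp1 was -0.35 ± 0.10 for tau against control (edgeR adjusted p = 0.441) and 0.36 ± 0.10 for treated tau against tau (adjusted p = 0.0999). Without control 2 the former was -0.19. The latter was 0.66 with a sex term and passed under 5 of 14 alternatives (adjusted p from 0.0123 to 0.476). Ncam1, a neural adhesion molecule, had -0.23 ± 0.08 for tau against control (adjusted p = 0.441), and Rpsa, the laminin receptor and ribosomal protein, -0.35 ± 0.09 for treated tau against tau (adjusted p = 0.0741, past the threshold with DESeq2 at 0.034).

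The machinery that anchors and sheds the prion protein gave 0 calls as well. Of 22 genes of GPI anchor synthesis and attachment, all tested, 11 were positive for tau against control (median 0.01) and 12 for treated tau against tau (median 0.00). Pigo, a transferase of the anchor, had a log2 fold change of -0.34 ± 0.17 for tau against control and Pign, another transferase, 0.16 ± 0.10. For treated tau against tau Pign had -0.29 ± 0.09 and Pgap3, which remodels the anchor's lipid, 0.44 ± 0.18. Of 4 shedding proteases 0 were called, and Adam10, the main sheddase of the prion protein, had 112 and 137 CPM in control, 135 and 143 CPM in tau and 139 and 134 CPM in treated tau, with control 1 lowest. Of 18 other GPI-anchored neuronal surface proteins 0 were called. Lsamp, an adhesion molecule of the limbic system, had -0.25 ± 0.09 for tau against control and Cntn1, contactin, 0.14 ± 0.07. For treated tau against tau Gfra2, a neurturin receptor, had 0.29 ± 0.09 and Gpc1, a glypican, 0.29 ± 0.10, which was 0.03 with a sex term, while Gfra2 was 0.44. For tau against control without tau 2 the Lsamp value was -0.16.

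Of 11 structural microtubule-associated proteins, the class to which tau belongs, 1 was called in 1 comparison, treated tau against tau, where 3.76% of all genes were called. Map1a, a dendritic microtubule-binding protein, had 1002 and 1064 CPM in control, 695 and 802 CPM in tau, and 1010 and 1024 CPM in treated tau. The tau libraries were lower than all others, without overlap. Such separation was common, since 41.6% of all tested genes did not overlap between tau and control. Between treated tau and tau the share was 41.3%. How many genes had both tau libraries lowest of all was not counted. Map1a rose in treated tau against tau (log2 fold change 0.44 ± 0.08, edgeR adjusted p = 0.0132). For tau against control its log2 fold change was -0.46 ± 0.08, not called over all genes (adjusted p = 0.395), though DESeq2 called it (adjusted p = 0.0016). The call for treated tau against tau was lost without tau 1 (adjusted p = 0.134), without treated tau 1 (0.0913), without treated tau 2 (0.109) and with a sex term (0.115). Map1b, its relative of growing axons, had 0.28 ± 0.07 for treated tau against tau (adjusted p = 0.0708, past the threshold under 7 of 14 alternatives, from 0.0252 to 0.483), and Map7d1, a kinesin cofactor, -0.23 ± 0.09 for tau against control, or -0.14 without control 2. Of the 11, 9 were positive for treated tau against tau (median 0.09, all genes -0.01), while Mapt itself, not called, was negative.

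Of 14 genes of tau binding, uptake and clearance 0 were called. For tau against control 9 were positive (median 0.09), and besides Lrp1 the smallest p belonged to Fkbp5, a cochaperone of Hsp90 induced by glucocorticoids, with 22.3 and 25.05 CPM in control and 28.8 and 35.4 CPM in tau (log2 fold change 0.43 ± 0.13, edgeR adjusted p = 0.441). For treated tau against tau 10 were positive (median 0.06), and Sorl1, a sorting receptor, had 0.23 ± 0.09 (adjusted p = 0.298), with 0.11 without treated tau 2 and 0.34 without treated tau 1. The Fkbp5 value for tau against control was 0.28 without tau 2.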

How the data were processed

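The deposited tables, 1 per library, give raw counts of reads by gene symbol, which the authors left unscaled. Per the labels' protocols the kit was stranded and depleted ribosomal RNA, Cutadapt removed adapters, and TopHat2 aligned reads to RefSeq mRNAs with its defaults. SAMtools, featureCounts, edgeR and mm10 are further names in the submitters' processing notes, while strand and overlap settings of the counting are unknown here. Control and tau listed 54429 symbols each and treated tau listed 54134, and the 53640 shared symbols were used. Libraries carry the numbers of their titles, and the file headers of 4 libraries name the same group with another number. Symbols outside these held at most 0.352% of a library's counts. Genes kept by filterByExpr (minimum count 10) were TMM-scaled, and all 6 libraries entered 1 edgeR 4.0.16 quasi-likelihood fit in R 4.3.3 (two-sided, 3 residual degrees of freedom). Adjusted p is the Benjamini-Hochberg value over 20694 genes, called under 0.05. The edgeR fit of tau against control was checked on simulated data. Alternatives used DESeq2 1.42.0, limma 3.58.1, RLE factors, other filters, a replicate block, a sex term (Xist against Ddx3y), only the groups compared, and each library left out.

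Log2 CPM used a prior count of 2. Positions and lengths came from GENCODE M21, promoters from RefSeq (GRCm38.p6), where Prnp, Prnd and Sprn were matched. Named genes were the members, the nearest tested gene on each side within 250 kb, the 5 nearest patterns for Prnp and Mapt, and up to 4 called genes of each list or else the 2 of smallest p. The members, lists and this rule were chosen with earlier results of these data known.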

Additional observations from a re-analysis of the deposited data

How the results depend on the processing

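Values are log2 fold changes or counts of called genes. The replicate numbers shared by the groups did not pair the libraries (correlation of same-numbered deviations 0.17 for control and tau, -0.06 for control and treated tau and 0.14 for tau and treated tau). A replicate block turned Sprn for treated tau against tau to 3e-04 and changed no other direction or call of a member. Removing the filter turned it to 0.0111. Genes called moved to 43 with DESeq2 for tau against control, and for all PS19 libraries against control to 421 with DESeq2, 80 without a filter and 282 with a sex term. The sex term gave 166 genes, Prnp -0.78 and Mapt -0.64 for treated tau against tau, Prnp 0.46 for PS19 against control and Lamr1-ps1 -0.30 for treated tau against control, and Lamr1-ps1 became a call in treated tau against tau (adjusted p = 0.0496). With only the groups compared, Mapt was -0.29 for treated tau against tau. The sex term rests on 2 control libraries by construction. The cause of the other changes was not tested.

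Leaving out each library in turn gave these lowest and highest values. For tau against control, genes called ran from 0 to 98 (highest without control 2), Prnp from -0.0677 to 0.85, Sprn from -0.0802 (without tau 1) to 0.18 and Lamr1-ps1 from -0.27 to 9.19. In treated tau against tau, genes called ran from 354 (without tau 1) to 840.0, Prnp from 0.019 (without treated tau 1) to 0.25, Sprn from -0.12 to 0.13, Mapt from -0.34 to -0.22 and Lamr1-ps1 from -0.59 to 0.31. In treated tau against control, genes called ran from 495 (without treated tau 2) to 817, Prnp from 0.0743 to 0.99, Mapt from -0.26 to 0.0914 and Lamr1-ps1 from -0.30 to 9.16. For PS19 against control, genes called ran from 60 (without either treated tau library) to 255, Prnp from 0.0033 to 0.92, Sprn from -0.0128 to 0.12, Mapt from -0.13 to 0.23 and Lamr1-ps1 from -0.28 to 9.17. Fitted values of Lamr1-ps1 near 9 rest on a lone control library at 0 counts and the prior count, and are no sizes.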

Other observations

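The patterns nearest to Sprn were looked at after its values were seen. Their root mean square differences were smaller than those for Prnp and Mapt. The measure is not scaled to a gene's own spread, and Sprn was the steadiest tested member. The smaller values therefore do not show a closer match. Epm2a, the laforin phosphatase gene of glycogen metabolism, differed from Sprn by a root mean square of 0.013 in log2 CPM deviations over the 6 libraries. Epm2a had 69.6 and 66.5 CPM in control, 77.3 and 63.8 CPM in tau and 70.4 and 68.9 CPM in treated tau. As for Sprn, its highest and lowest libraries were tau 1 and tau 2.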
